A study of Mus musculus and Homo sapiens with 12 samples.

Results

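The neutrophil primary granule genes examined here are 9 listed genes: MPO, ELANE, PRTN3, CTSG, AZU1, MS4A3, LYZ, CST7 and SRGN. They were chosen by name and matched by gene symbol, without regard to case, in the authors' normalized tables. In mouse, 7 of the 9 were found (Mpo, Elane, Prtn3, Ctsg, Ms4a3, Cst7 and Srgn) among the 11908 of 55487 genes that had a symbol there. In human, 5 of the 9 were found (MPO, LYZ, MS4A3, CST7 and SRGN) among the 14931 of 78932 genes that had a symbol. No identifier was paired with the human symbols ELANE, PRTN3, CTSG and AZU1, so these genes were not analysed here. Their levels in the human libraries were not read. All of the genes found passed the filter on low counts, and 4 were tested in both species. LYZ has no mouse gene of the same symbol, so its mouse counterparts Lyz2 and Lyz1 are given without being counted among the 7.

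RNA was sequenced in 12 libraries that form 2 experiments of 2 groups, with 3 libraries in each group. The mouse libraries came from LK cells, which lack lineage markers and carry the receptor Kit, sorted from E13.5 fetal liver. One group, called wild type (WT), was Ddx21f/f, which means that both copies of Ddx21 were flanked by recombination sites, and the conditional knockout group (cKO) was Vav1-Cre; Ddx21f/f. Vav1-Cre deletes the flanked sequence in blood cells, and the floxed alleles were common to both mouse groups while Cre was not. The human libraries came from cells differentiated towards blood stem cells from the embryonic stem cell line H1. These were transduced with lentivirus whose mCherry-marked hairpin was either a control (shNC) or directed at DDX21 (shDDX21), and live cells positive for CD34, CD45, CD43 and the hairpin marker were sorted. DDX21 is an RNA helicase of the nucleolus with roles in ribosomal RNA synthesis and processing.

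Primary, or azurophil, granules are the first granules that form as a myeloid progenitor becomes a neutrophil, at the promyelocyte stage. They store myeloperoxidase and a family of serine proteases on a proteoglycan matrix, and their genes are transcribed in a short window before the genes of secondary and tertiary granules. In progenitors the transcription factors PU.1, C/EBP alpha, C/EBP epsilon, RUNX1 and MYB are known regulators of these genes, and neutrophil elastase mutations cause severe congenital neutropenia.

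Total counts lay between 21116079 and 23898130 per mouse library, and between 15289510 and 19798608 per human library. Levels are given as CPM, the counts of a gene scaled to a common library size. The targeted gene fell in both experiments, from 1424 to 280 CPM for Ddx21 and from 470.1 to 68.3 CPM for DDX21. The sort markers were present: Kit averaged 362 CPM in WT and 317 CPM in cKO cells, and CD34 averaged 248.6 CPM in shNC and 297.5 CPM in shDDX21 cells. The mature neutrophil marker Ly6g had 0 counts in all WT libraries and 1 count in 1 cKO library, and the T cell marker Cd3e had the same counts. The labels do not say whether libraries of a group came from separate embryos or cultures, so p-values measure the spread between these libraries, which may be technical. In such bulk samples, fewer cells of a type and less RNA per cell cannot be told apart.

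The promoters of Mpo, Elane, Prtn3 and Ctsg, the 4 enzyme genes among the 7, are shown because these genes fell together in the cKO cells. The genes for other granule components did not all do so. Lyz2, which also encodes a granule enzyme and is not counted among the 7, fell as well, to 62.8% of WT. Its window is described below without its sequence. The sequences are RefSeq's for GRCm38.p6, cover 250 bases before the start site, and matched all 7 mouse genes. Capitals mark the letters GAGGAA (a core of PU.1 sites), CAACTG (MYB) and TGTGGT (RUNX) on either strand, so CAGTTG and ACCACA are the MYB and RUNX letters read on the reverse strand. For Mpo, Elane and Prtn3 the gene models of the raw tables begin upstream of the RefSeq start, so the windows are not upstream of every annotated transcript. The motifs were chosen after the expression values had been seen.
Mpo, chr11:87793534-87793783, plus strand: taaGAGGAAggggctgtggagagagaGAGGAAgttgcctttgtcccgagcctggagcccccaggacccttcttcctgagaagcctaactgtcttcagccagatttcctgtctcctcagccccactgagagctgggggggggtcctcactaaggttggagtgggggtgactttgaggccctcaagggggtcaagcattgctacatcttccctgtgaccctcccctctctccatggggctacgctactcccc
Elane, chr10:79886062-79886311, plus strand: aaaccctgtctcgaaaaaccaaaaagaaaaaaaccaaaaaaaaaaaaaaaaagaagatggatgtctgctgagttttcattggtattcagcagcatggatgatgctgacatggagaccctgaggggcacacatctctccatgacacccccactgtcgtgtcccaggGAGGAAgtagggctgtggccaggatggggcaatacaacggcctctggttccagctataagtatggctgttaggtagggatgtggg
Prtn3, chr10:79879417-79879666, plus strand: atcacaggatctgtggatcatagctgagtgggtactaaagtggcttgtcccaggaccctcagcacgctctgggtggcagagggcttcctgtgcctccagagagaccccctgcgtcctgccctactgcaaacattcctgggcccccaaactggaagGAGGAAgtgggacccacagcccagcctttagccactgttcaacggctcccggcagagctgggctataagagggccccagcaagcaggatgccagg
Ctsg, chr14:56102575-56102824, minus strand: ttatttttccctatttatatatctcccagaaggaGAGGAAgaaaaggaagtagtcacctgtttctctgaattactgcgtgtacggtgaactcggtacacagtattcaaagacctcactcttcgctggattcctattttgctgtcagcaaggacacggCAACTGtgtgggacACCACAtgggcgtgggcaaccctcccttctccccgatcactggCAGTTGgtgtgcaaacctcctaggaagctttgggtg

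GAGGAA occurred in each of these 4 promoters, beginning 247 and 224 bases before the start of Mpo, 85 bases before Elane, 95 bases before Prtn3 and 216 bases before Ctsg. Of all 32851 promoter windows of the same length, 23.3% held it. It was not found in the windows of Lyz2 or Ms4a3, which also fell in cKO cells, nor in those of Cst7 or Srgn, which rose. The 4 genes and the motifs were picked after the expression values had been seen, and a link between motif and change was not tested. Ctsg also held CAACTG 93 and 36 bases before its start, with TGTGGT 79 bases before it. CAACTG was found in 11.1% of all windows and TGTGGT in 14%. The C/EBP letters TTGCNNAA, present in 9.56% of windows, were found in no window of the 7 genes or of Lyz2. The windows of Cst7 and Lyz2 held TGTGGT, 188 and 66 bases before the start, and that of Ms4a3 held none of the 4 motifs. Srgn has 2 RefSeq windows, which held TGTGGT 202 bases and CAACTG 148 and 118 bases before a start. For comparison, the windows of Cst7, which rose in cKO cells, and Ms4a3, which fell least of the 5 lower genes, are given with the same capitals.
Cst7, chr2:150570165-150570414, plus strand: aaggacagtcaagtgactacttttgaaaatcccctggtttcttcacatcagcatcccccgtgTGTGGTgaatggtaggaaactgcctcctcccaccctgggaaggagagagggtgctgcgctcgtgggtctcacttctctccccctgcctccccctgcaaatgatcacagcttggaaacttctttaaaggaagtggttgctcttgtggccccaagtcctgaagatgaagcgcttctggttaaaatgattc
Ms4a3, chr19:11640852-11641101, minus strand: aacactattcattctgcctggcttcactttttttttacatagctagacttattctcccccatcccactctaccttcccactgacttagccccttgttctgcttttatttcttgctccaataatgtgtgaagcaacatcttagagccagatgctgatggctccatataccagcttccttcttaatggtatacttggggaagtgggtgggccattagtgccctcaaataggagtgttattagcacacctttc

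In mouse LK cells the transcripts of myeloperoxidase and of 3 serine proteases were lower after deletion of Ddx21, at 57.1% of the WT mean for Mpo, 43.8% for Ctsg, 29.7% for Prtn3 and 22.2% for Elane. Ms4a3 was lower by less, at 75.2% of WT. Cst7 and Srgn were higher, at 129.9% and 123.3% of WT. At an adjusted p under 0.05 in edgeR's quasi-likelihood test, 5 of the 7 genes fell and 2 rose. Of all 14918 genes tested in mouse, 36.5% passed the same test, 20.7% higher and 15.8% lower. With a change of at least 2-fold also required, 3 of the 7 were called (Elane, Prtn3 and Ctsg), against 9.08% of all genes. The WT and cKO libraries did not overlap for any of the 7, nor for Lyz2. The share of all tested genes without overlap was not counted. Some genes without a call, such as Supt4a near Mpo, did not overlap either. In an exact permutation test, 3 libraries against 3 cannot go below a two-sided p of 0.1.

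**Figure D1:**
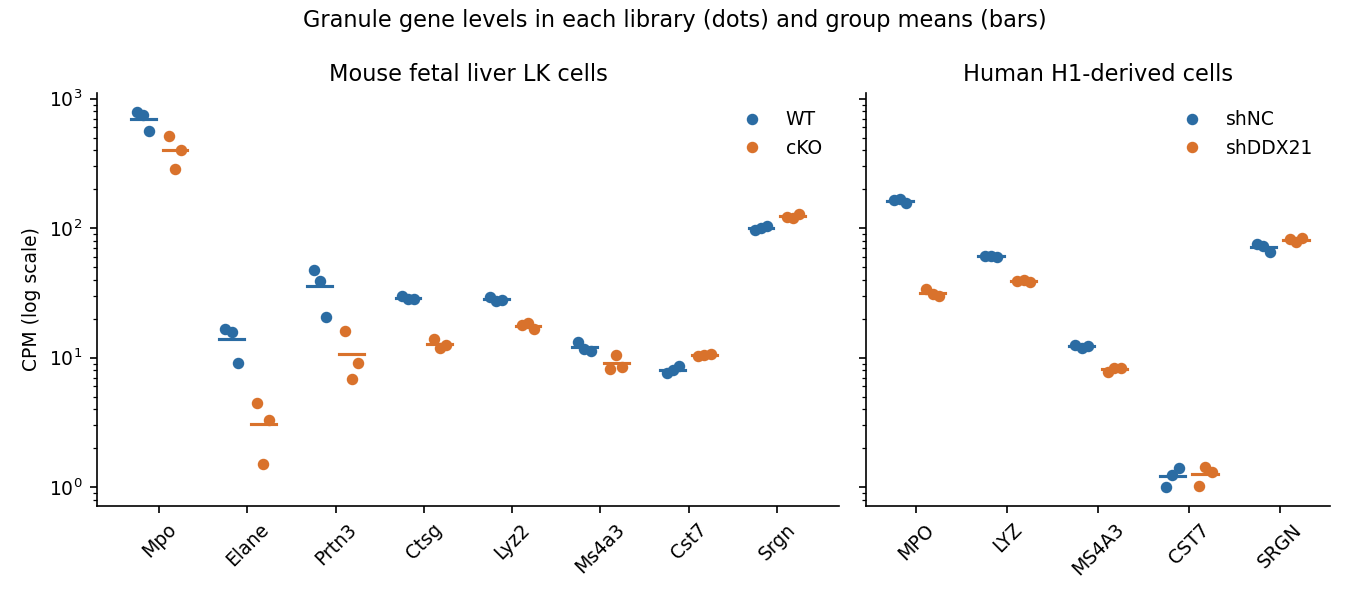
Each dot is 1 library and each bar a group mean, in CPM on a log axis, for the mouse genes (left, WT blue and cKO orange) and the human genes (right, shNC blue and shDDX21 orange). In mouse no gene has overlapping groups, with Mpo between 564 and 784 CPM in WT and between 285 and 517 in cKO, and in human the groups overlap for CST7 alone.

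Mpo (chr11:87793581-87804413, mm10, plus strand) encodes myeloperoxidase, the haem enzyme that makes hypochlorous acid from hydrogen peroxide and chloride. It stood at 784, 752 and 564 CPM in the WT libraries and at 517, 285 and 398 CPM in the cKO libraries. All cKO values were below the lowest WT value, with WT library 3 the lowest of its group and cKO library 1 the highest of its own. The mean fell from 700.1 ± 119 to 400.1 ± 116 CPM (SD, n = 3 each), or -0.81 on the log2 scale (SE 0.216, adjusted p = 0.0237). The call was lost without WT library 1 (adjusted p = 0.0789), WT library 2 (0.0799) or cKO library 3 (0.0817), while the log2 fold change stayed between -1.02 and -0.60 in all 15 alternatives.

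Mpo dominated the set's transcripts. It took 78.7%, 78.8% and 75.7% of the 7 genes' counts in WT libraries 1 to 3, and 74.7%, 64.0% and 69.8% in the cKO libraries. Per kilobase of exon it ranked 138 of 14918 genes in WT, at 204.5 ± 34.8 CPM per kb. Together the 7 genes held 0.0958%, 0.0929% and 0.0741% of all counts in WT and 0.0696%, 0.0460% and 0.0585% in cKO.

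Elane (chr10:79886247-79888215, plus strand) encodes neutrophil elastase, the protease mutated in most severe congenital neutropenia. It stood at 16.6, 15.9 and 9.14 CPM in WT and at 4.44, 1.5 and 3.31 CPM in cKO, on 197 to 370 and 37 to 102 counts. Every cKO value was below the lowest WT value. The mean fell from 13.9 ± 4.11 to 3.08 ± 1.48 CPM, or -2.18 on the log2 scale (SE 0.377, adjusted p = 0.0039), the largest fall among the 7.

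Prtn3 (chr10:79874476-79883174, plus strand) encodes proteinase 3, the protease targeted by autoantibodies in granulomatosis with polyangiitis. Its values were 47.7, 38.8 and 20.6 CPM in WT and 15.9, 6.81 and 9.07 CPM in cKO. WT library 3 was again the lowest WT library and cKO library 2 the lowest cKO library, as for Mpo and Elane. The mean fell from 35.7 ± 13.8 to 10.6 ± 4.75 CPM, or -1.75 on the log2 scale (SE 0.386, adjusted p = 0.0109), and the call was lost without cKO library 3 (adjusted p = 0.0537). The gene overlaps Plppr3 on the opposite strand, which had up to 530 counts in a library, and the sources used here do not give the strand setting of the counting, so part of the reads of the pair may not be assigned to the right gene.

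Ctsg (chr14:56099881-56102574, minus strand) encodes cathepsin G, a chymotrypsin-like protease of the same granule. It stood at 30.1, 28.4 and 28.5 CPM in WT and at 13.8, 11.9 and 12.4 CPM in cKO. The 3 libraries of each group were close together, unlike those of Elane and Prtn3. The mean fell from 29.0 ± 0.948 to 12.7 ± 0.978 CPM, or -1.19 on the log2 scale (SE 0.080, adjusted p = 4.38e-05). The call held in all 15 alternatives.

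Lyz2 (chr10:117277331-117282321, minus strand), a mouse lysozyme that cleaves bacterial cell walls and is also made by macrophages, fell from 28.1 ± 0.989 to 17.6 ± 0.997 CPM. Its values were 29.2, 27.3 and 27.8 CPM in WT and 17.8, 18.5 and 16.6 CPM in cKO, or -0.67 on the log2 scale (SE 0.072, adjusted p = 0.000424). Lyz1 had 1 count, in cKO library 3, and was not tested.

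Ms4a3 (chr19:11629496-11640851, minus strand) encodes a tetraspanning membrane protein whose gene marks granulocyte and monocyte progenitors. It stood at 13.1, 11.7 and 11.2 CPM in WT and at 8.23, 10.4 and 8.48 CPM in cKO. The highest cKO library was just below the lowest WT library. The mean fell from 12 ± 1.01 to 9.04 ± 1.20 CPM, or -0.41 on the log2 scale (SE 0.121, adjusted p = 0.0347). That call was lost with scaling by total counts (adjusted p = 0.0633) and without WT library 1 (0.117), WT library 2 (0.0814), cKO library 1 (0.0772) or cKO library 3 (0.12).

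Cst7 (chr2:150570415-150578944, plus strand) encodes cystatin F, an inhibitor of the cathepsins that activate granule proteases. It stood at 7.62, 7.98 and 8.59 CPM in WT and at 10.4, 10.4 and 10.7 CPM in cKO, so that all cKO libraries lay above all WT libraries. The mean rose from 8.06 ± 0.486 to 10.5 ± 0.156 CPM, or 0.38 on the log2 scale (SE 0.087, adjusted p = 0.0133). The call was lost without WT library 1 (adjusted p = 0.0551), WT library 2 (0.0523) or cKO library 3 (0.0539), and in DESeq2 (0.0689).

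Srgn (chr10:62493833-62527451, minus strand) encodes serglycin, the proteoglycan core on which granule proteases are packed, and is expressed in many blood cells. It stood at 96.7, 99.8 and 103 CPM in WT and at 122, 119 and 128 CPM in cKO. The mean rose from 99.9 ± 3.21 to 123.2 ± 4.38 CPM, or 0.30 on the log2 scale (SE 0.045, adjusted p = 0.00192), and the call held in all 15 alternatives. The gene lies 52.8 kb from Ddx21, the gene deleted in these cells, and genes around it changed in both directions: Vps26a fell by 0.29 and Ddx50 rose by 0.30 on the log2 scale, while Supv3l1 stood at -0.090 and Kifbp at 0.022 and were not called.

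**Figure D2:**
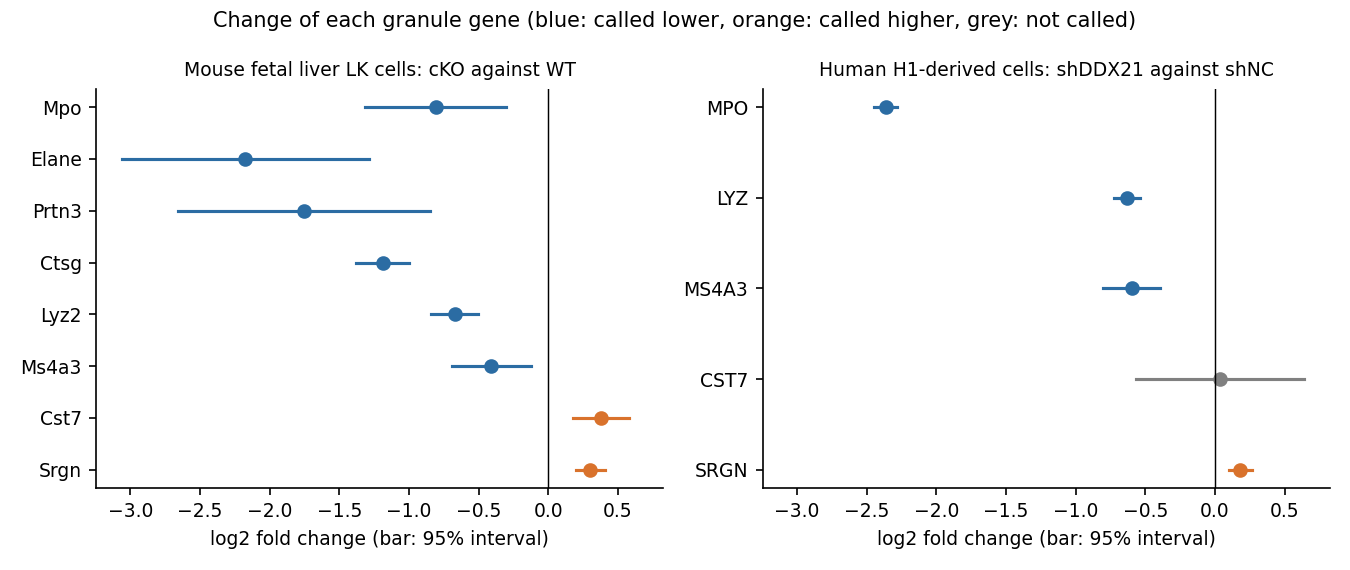
Points are log2 fold changes and bars 95% intervals from the quasi-likelihood fit, for mouse cKO against WT (left) and human shDDX21 against shNC (right), with genes called lower in blue, higher in orange and not called in grey. Elane has the lowest mouse value, -2.18, and MPO the lowest human value, -2.36, and the interval of CST7 runs from -0.56 to 0.64.

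Without WT library 1, 4 of the 7 genes were called, without WT library 2 there were 4, and without cKO library 3 there were 3. Without cKO library 1 there were 6, and without WT library 3 or cKO library 2 all 7 were called. Calls over all genes changed as well. They were 2435 higher and 1498 lower of 15312 without WT library 1, and 2385 and 1480 of 15435 without WT library 2. Without cKO library 3 they were 2349 and 1368 of 15331, and without cKO library 1 they were 2963 and 2708 of 15247. Without WT library 3 they were 2779 and 2597 of 15423, and without cKO library 2 they were 2865 and 1860 of 15244. The direction of each of the 7 was the same in all 15 alternatives. The choice of scaling changed how the calls over all genes split between directions. Scaling by total counts gave 3565 higher and 1612 lower, and an offset for GC content gave 3015 higher and 4358 lower, against 3083 higher and 2360 lower as reported. All 7 genes had the same direction under both.

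The 3 genes whose libraries spread most within a group were Mpo, Elane and Prtn3, and they deviated together. On the log2 scale relative to the WT mean, Elane stood at 0.31 in WT library 1 and -0.55 in WT library 3, and at -1.59, -3.16 and -2.02 in cKO libraries 1 to 3. The same libraries stood apart across all genes by GC content. Among genes in the top quartile of GC content, the mean deviation from the group mean was 0.142, 0.0723 and -0.215 in WT libraries 1 to 3 and 0.232, -0.230 and -0.00181 in cKO libraries 1 to 3. The bottom quartile stayed between -0.048 and 0.055. Transcripts of Prtn3, Elane and Mpo were GC rich, at 60.7%, 57.4% and 56.4%, against a median of 49.0% among tested genes, while those of Ctsg, Cst7, Lyz2, Srgn and Ms4a3 stood at 51.5%, 50.1%, 48.3%, 42.8% and 40.0%.

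With the offset for transcript GC content, chosen after seeing the data, all 7 genes were called. Over all 14898 genes tested with it, 3015 were called higher and 4358 lower. The offset also shifted the comparison between groups, as the median log2 fold change over all genes moved from 0.000574 to -0.061. Its results therefore cannot be read as a correction of the spread within groups alone. For the 7 genes, the values with the offset were as follows. The log2 fold change became -0.74 for Mpo (adjusted p = 0.000289), -2.05 for Elane (0.000109), -1.47 for Prtn3 (0.000121), -1.27 for Ctsg (1e-06), -0.49 for Ms4a3 (0.00502), 0.29 for Cst7 (0.025) and 0.20 for Srgn (0.00611). Without WT library 3 and cKO library 2 together, also chosen after seeing the data, the values were -0.74 for Mpo (adjusted p = 0.000912), -2.05 for Elane (3.8e-05) and -1.78 for Prtn3 (0.000555).

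**Figure D3:**
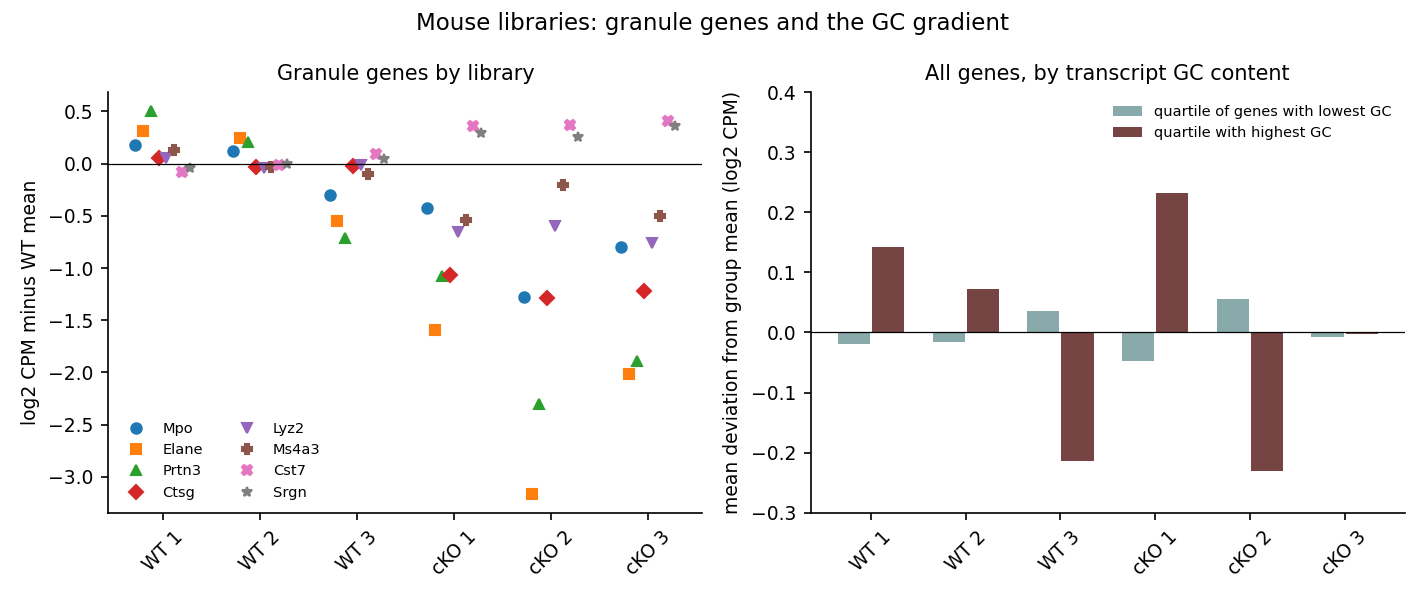
Left, log2 CPM of each mouse gene minus its WT mean, 1 symbol per gene in each library. Right, mean deviation from the group mean of genes in the bottom and top quartiles of transcript GC content, in log2 CPM. WT library 3 and cKO library 2 are low for Mpo, Elane and Prtn3, and are also the libraries with deviations of -0.215 and -0.230 in the top quartile.

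Compared per kilobase of exon, the order of levels in WT was Mpo, Srgn (45.5 ± 1.46 CPM per kb), Ctsg (28.1 ± 0.918), Lyz2 (21.3 ± 0.752), Prtn3 (20.6 ± 7.97), Elane (14.1 ± 4.18), Cst7 (8.18 ± 0.492) and Ms4a3 (6.38 ± 0.536). Lyz2 and Prtn3 overlapped, as did Prtn3 and Elane, and the other neighbours did not. In cKO the order was Mpo (116.9 ± 33.9), Srgn (56.1 ± 2.00), Lyz2 (13.4 ± 0.757), Ctsg (12.3 ± 0.947), Cst7 (10.6 ± 0.159), Prtn3 (6.12 ± 2.75), Ms4a3 (4.80 ± 0.635) and Elane (3.13 ± 1.51). Elane and Prtn3 thus moved below Cst7, an inhibitor gene that they exceeded in WT, and overlaps remained for Lyz2 with Ctsg, Prtn3 with Ms4a3 and Ms4a3 with Elane.

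Elane and Prtn3 lie 3.07 kb apart on chromosome 10, in a cluster of genes for which the neighbours within 100 kb were examined. R3hdm4 fell by 0.59 and Wdr18 fell by 0.60 on the log2 scale, and E130317F20Rik rose by 0.48. Plppr3 at -0.70, Med16 at -0.80, Prss57 at -0.92, Arid3a at -0.25, Ptbp1 at -0.26, Palm at -0.21 and Tmem259 at -0.25 were not called. Elane at -2.18 and Prtn3 at -1.75 had the lowest log2 fold changes among these neighbours. R3hdm4 lost its call without WT library 1, WT library 2 or cKO library 3 (largest adjusted p = 0.061), Wdr18 without these or cKO library 2 (largest 0.114), and E130317F20Rik without WT library 1 or 3 or cKO library 2 or 3 (largest 0.141). Med16 (adjusted p = 0.0339) and Plppr3 (0.0387) were called without WT library 3 and (0.0234 and 0.0446) without cKO library 1, and Prss57 without cKO library 1 (0.0431). Plppr3 and Med16 have transcript GC contents of 60.3% and 60.2%, near that of Prtn3. Among the neighbours of Mpo, Mir142hg, which hosts a blood-cell microRNA, fell by 0.55, and 1110028F11Rik rose by 0.77. Near Ctsg the basophil protease gene Mcpt8 rose by 0.90, from 0.636 ± 0.0349 to 1.19 ± 0.0626 CPM, on few counts. Near Ms4a3, Ms4a6b fell by 0.86, and near Cst7, Acss1 fell by 0.53. The call of Ms4a6b was lost without WT library 1, WT library 2 or cKO library 3 (largest adjusted p = 0.106), that of Mcpt8 in DESeq2 (0.134) and that of Mir142hg with the GC offset (0.0896).

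In human H1-derived cells, MPO fell to 19.4% of control after knockdown of DDX21, and LYZ and MS4A3 fell to 64.5% and 66.3%. SRGN rose to 113.5%, and CST7, at about 1 CPM, was not called. Of the 5 genes, 3 were lower and 1 was higher at an adjusted p under 0.05 in edgeR's quasi-likelihood test, while 52.7% of all 20188 genes tested passed, 25.3% higher and 27.4% lower. With at least a 2-fold change also required, MPO alone was called, against 7.18% of all genes. The count was 4 in each alternative but that one.

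MPO (chr17:58269855-58280935, hg38, minus strand) stood at 164, 169 and 156 CPM in the shNC libraries and at 34, 30.9 and 30.0 CPM in the shDDX21 libraries. The groups were far apart and each was tight. The mean fell from 163.2 ± 6.49 to 31.6 ± 2.10 CPM (SD, n = 3 each), or -2.36 on the log2 scale (SE 0.042, adjusted p = 2.32e-55). MPO made up 52.4%, 53.4% and 52.8% of the 5 genes' counts in shNC and 20.8%, 19.4% and 18.6% in shDDX21.

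LYZ (chr12:69348381-69354234, plus strand), the lysozyme gene, stood at 60.6, 61.3 and 60.2 CPM in shNC and at 39.0, 40.1 and 38.4 CPM in shDDX21. On the log2 scale the change was -0.63 (SE 0.048, adjusted p = 2.94e-19). MS4A3 (chr11:60056587-60071115, plus strand) stood at 12.5, 11.9 and 12.4 CPM in shNC and at 7.75, 8.36 and 8.26 CPM in shDDX21, or -0.60 on the log2 scale (SE 0.103, adjusted p = 8.16e-07). For both genes every shDDX21 library was below every shNC library.

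SRGN (chr10:69088103-69104811, plus strand) stood at 75.2, 73.2 and 65.8 CPM in shNC and at 81.7, 78.4 and 83.1 CPM in shDDX21, or 0.18 on the log2 scale (SE 0.042, adjusted p = 0.000126). All shDDX21 libraries were above all shNC libraries. Here DDX21 was knocked down by a hairpin and not deleted, and the neighbour VPS26A fell by 0.91, SUPV3L1 fell by 0.19 and KIFBP stood at -0.14 without a call. SUPV3L1 lost its call without shNC library 1 (adjusted p = 0.144). CST7 stood at 1.01, 1.24 and 1.41 CPM in shNC and at 1.03, 1.42 and 1.31 CPM in shDDX21, on 19 to 25 and 20 to 24 counts, with a log2 fold change of 0.038 and a 95% interval from -0.56 to 0.64 (adjusted p = 0.929). A change of that gene within this interval was not detectable at this depth.

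Per kilobase of exon the order in shNC was SRGN (58.4 ± 4.05 CPM per kb), MPO (36.9 ± 1.47), LYZ (35.2 ± 0.316), MS4A3 (5.88 ± 0.156) and CST7 (1.37 ± 0.226), with MPO and LYZ overlapping. In shDDX21 it was SRGN (66.3 ± 1.96), LYZ (22.7 ± 0.481), MPO (7.14 ± 0.474), MS4A3 (3.90 ± 0.156) and CST7 (1.41 ± 0.229), with no overlap between neighbours. Near MPO, the eosinophil peroxidase gene EPX fell by 1.01 and TSPOAP1 fell by 0.33, while MIR142HG rose by 0.47, TSPOAP1-AS1 by 0.68 and SUPT4H1 by 0.71. The call of SUPT4H1 was lost without shNC library 3 (adjusted p = 0.0714) or shDDX21 library 1 (0.0658).

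The size of the fall of MPO differed between the experiments. The log2 fold change was -0.81 in mouse and -2.36 in human, a difference of 1.56 (SE 0.260, 95% interval 0.99 to 2.13, adjusted p = 0.000331) in a fit over 12 libraries. Of the 10344 genes tested in both, 56.3% had effects that differed at an adjusted p under 0.05, 35.9% with the mouse effect above the human one and 20.4% with it below. For MS4A3 the difference was 0.19 (95% interval -0.13 to 0.50, adjusted p = 0.288) and for SRGN 0.12 (-0.041 to 0.28, 0.183). For CST7 it was 0.34 (adjusted p = 0.266), without an interval, as its SE in this fit (0.207) was below that in human alone (0.301). The fit had 1 spread for each gene over both experiments. The common coefficient of variation between libraries was 10.5% in mouse and 2.23% in human. The difference for SRGN was called without shNC library 3 (adjusted p = 0.0329) and with scaling by total counts (0.0337). The cells, the method of lowering DDX21 and the species differ between the experiments and cannot be told apart here.

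Over the 12 libraries, the genes whose log2 CPM relative to the control mean lay nearest to that of MPO were OLR1, PIMREG, SAPCD2, SSR1 and MINPP1, with root mean square differences of 0.308, 0.350, 0.381, 0.419 and 0.448 among 8123 genes compared. In that order, their log2 fold changes were -0.95, -0.56, -1.10, -0.13 and -0.40 in mouse, where Mpo stood at -0.81. In human they were -1.96, -1.87, -1.74, -2.23 and -1.70, where MPO stood at -2.36. OLR1 and PIMREG averaged 5.92 and 5.47 CPM in human, near the mean of 5 CPM that was required. MS4A3 ranked 635, at 0.952, and SRGN ranked 6706, at 1.41. These values are a description over 6 libraries of each species, which differ in depth and, in mouse, in the GC gradient given above.

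The genes around the granule enzymes were read as lists, with counts of calls beside the share over all genes given above. Other primary granule contents, mainly lysosomal hydrolases and matrix proteins, were 6 higher and 2 lower of 14 tested in mouse, with a median log2 fold change of 0.080, and 9 higher and 2 lower of 14 in human, with a median of 0.25. The medians over all tested genes were 0.000574 and 0.00519. Man2b1, a lysosomal mannosidase, rose by 1.35, from 108 ± 8.64 to 274 ± 34.7 CPM, Fuca1 rose by 0.75 and Ctsd by 0.56. In human MAN2B1 rose by 0.24 and CTSD rose by 0.32, while FUCA1 fell by 0.40 (adjusted p = 7.97e-07). HEXA rose by 0.80 and PSAP by 0.34 in human, while mouse Hexa stood at -0.066 without a call and Psap fell by 0.37 (adjusted p = 0.00299), so Fuca1 and Psap were called in opposite directions in the 2 experiments. Prss57, a serine protease also stored in azurophil granules, had means of 2.52 ± 0.761 CPM in WT and 1.34 ± 0.909 CPM in cKO libraries and was not called (adjusted p = 0.182), while PRSS57 fell by 0.70 in human (adjusted p = 1.3e-05).

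Among genes for protease activation, sorting and inhibition, 4 of 16 were higher and 4 lower in mouse, and 7 of 15 were higher and 5 lower in human. CTSC, the cathepsin that activates the serine proteases, fell in both, from 64.1 ± 1.28 to 54.8 ± 3.97 CPM for Ctsc (adjusted p = 0.0256) and from 257 ± 1.25 to 220.0 ± 1.87 CPM for CTSC (adjusted p = 4.97e-12). The call of Ctsc was lost with scaling by total counts (adjusted p = 0.12) or upper quartiles (0.0848) and without any 1 library other than cKO library 2 (largest 0.0939). CD63, a membrane protein of azurophil granules, rose by 0.28 in mouse and 0.43 in human, and the elastase inhibitor fell, Serpinb1a by 0.38 and SERPINB1 by 0.44.

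Secondary granule genes were 1 higher and 3 lower of 7 in mouse (Cybb fell by 2.12, Hp fell by 2.06 and Ltf rose by 4.03), and 1 higher and 3 lower of 5 in human (PTX3 fell by 1.92 and CHI3L1 fell by 1.79). Tertiary granule and secretory vesicle genes were 2 higher and 2 lower of 6 in mouse, where Itgb2 rose by 1.59 and Alpl by 2.02, and 1 higher and 9 lower of 12 in human, where MMP9 fell by 2.14 and S100A9 fell by 2.27. The median log2 fold change of the tertiary list was 0.11 in mouse and -0.69 in human.

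**Figure D4:**
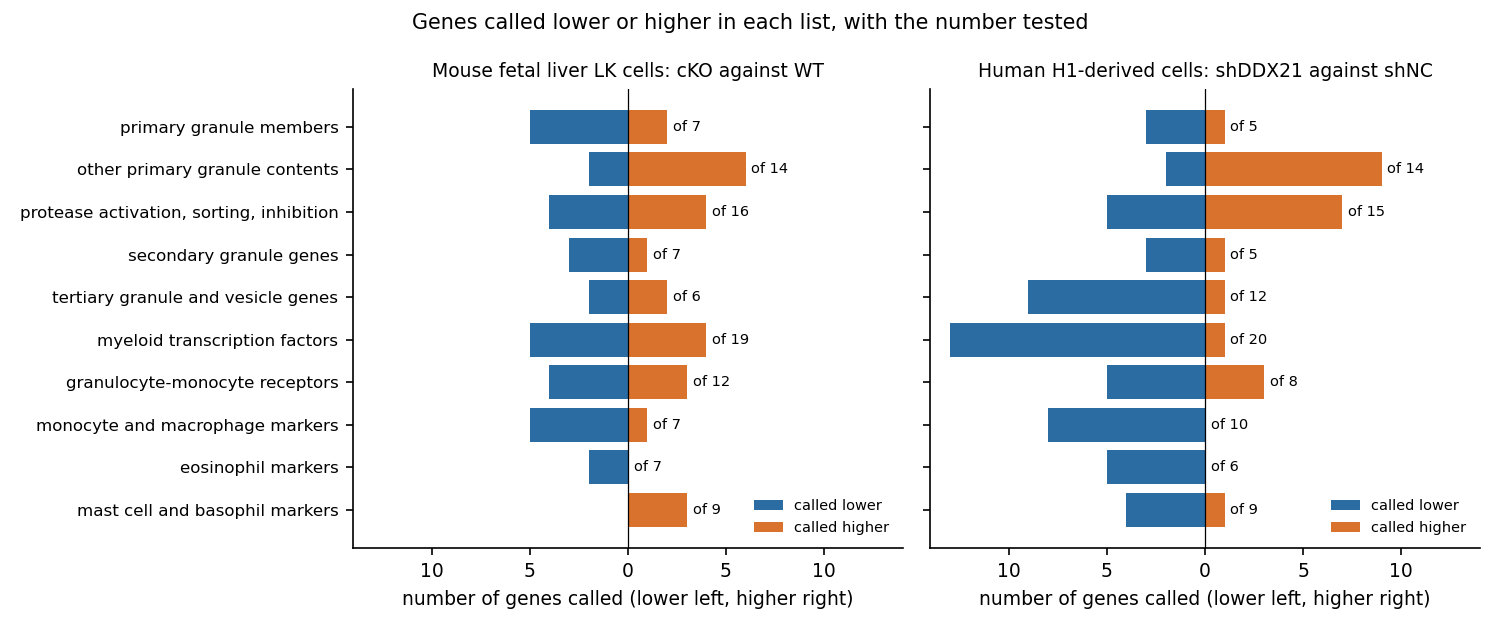
Bars give the number of genes called lower (left, blue) and higher (right, orange) in each list, with the number tested printed beside the bar, for the mouse (left) and human (right) experiments. Of the 20 human transcription factors 13 are lower and 1 higher, and of the 19 mouse ones 5 are lower and 4 higher.

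Of 19 transcription factors of myeloid cells in mouse, 4 were higher and 5 lower. Irf8, which directs monocyte and dendritic cell fate, fell from 28.0 ± 2.07 to 7.70 ± 0.277 CPM (adjusted p = 8.41e-06), and Cebpe, which acts at the promyelocyte stage, fell from 2.53 ± 1.18 to 0.643 ± 0.423 CPM (adjusted p = 0.0269). Cebpa, which starts the granulocyte programme, stood at 13.3 ± 0.735 and 13.2 ± 0.461 CPM, Spi1, which encodes PU.1, at 23.9 ± 4.90 and 24.7 ± 5.07 CPM and Gfi1 at 5.20 ± 0.973 and 5.78 ± 0.337 CPM, and none of them was called. The call of Cebpe was lost without WT library 1 (adjusted p = 0.0914), WT library 2 (0.0831) or cKO library 3 (0.0843), and Spi1 was called with the GC offset (log2 fold change 0.25, adjusted p = 0.017). Runx1 (log2 fold change 0.12, adjusted p = 0.0594) and Myb (0.12, adjusted p = 0.06) were not called either. Leaving out WT library 3 (0.0461) or cKO library 1 (0.0323) gave a call for Myb, and leaving out cKO library 2 (0.037) gave one for Runx1.

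In human, 13 of 20 of these factors were lower and 1 was higher. GFI1, a repressor needed for neutrophil formation, fell from 7.16 ± 0.839 to 1.89 ± 0.363 CPM and CEBPA from 12.6 ± 0.827 to 5.19 ± 0.992 CPM. CEBPE fell by 1.38, IRF8 by 1.22, MYB by 0.61 and RUNX1 by 0.48, and SPI1 fell from 214 ± 6.37 to 190.4 ± 2.84 CPM (log2 fold change -0.17, adjusted p = 4.61e-07).

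Receptors of granulocytes and monocytes were 3 higher and 4 lower of 12 in mouse and 3 higher and 5 lower of 8 in human. Csf3r, the receptor for G-CSF, rose from 29.3 ± 1.40 to 47.8 ± 2.27 CPM in mouse (adjusted p = 0.000193), and CSF3R fell from 133 ± 4.41 to 112 ± 2.45 CPM in human (adjusted p = 1.41e-09). Csf1r fell by 2.08 and Clec12a fell by 1.86 in mouse.

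Markers of other cell types were read in the same libraries, with levels summed over all listed genes that had a symbol, tested or not. Monocyte and macrophage markers were 5 lower and 1 higher of 7 in mouse, their summed level lay between 76.6 and 78.7 CPM in WT and between 25.2 and 26.3 CPM in cKO, and C1qc was at 0 in all libraries. Ly86 fell by 3.56, F13a1 fell by 2.04 and Ccr2 fell by 1.75. In human, 8 of 10 were lower, and the sum was 192.7 to 204.6 CPM in shNC and 126.4 to 135.8 CPM in shDDX21. Stem and multipotent progenitor markers rose in mouse for 12 of 12 genes, with sums of 327.5 to 349.4 CPM in WT and 709.6 to 720.7 CPM in cKO, and in human 6 were higher and 4 lower of 10. Mast cell and basophil markers were 3 higher, 0 lower and 6 not called of 9 in mouse, with sums of 137.0 to 161.4 CPM in WT and 188.4 to 232.7 CPM in cKO, and Tpsab1 at 0. In human 1 was higher and 4 lower of 9. Eosinophil markers were 2 lower and 5 not called of 7 in mouse and 5 lower of 6 in human, where the sum was 86.7 to 90.8 CPM in shNC and 41.1 to 45.1 CPM in shDDX21. The part of any of these in the changes of the granule genes was not tested.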

How the data were processed

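RNA sequencing libraries of polyadenylated RNA from 4 groups of 3 were used. Per the labels' protocols, RNA came from a small-scale kit and an mRNA library kit. The submitters' processing notes name STAR, featureCounts and DESeq2, with the builds mm10 and hg38, but no versions, and the strand setting is not given in the sources used here. The deposited raw tables hold integer counts per gene, which were the input to the tests. The authors' normalized tables hold signal values, each the raw count over 1 size factor per library (largest relative deviation 4.97e-10, checked on the files), beside log2 ratios to the control mean deposited by the authors. Those tables paired human identifiers with symbols, so human lists cover only the genes the authors kept there. Mouse symbols missing there were completed from a reference of gene names, so mouse lists also cover genes the authors did not keep.

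Genes were filtered with filterByExpr, scaled by TMM and tested two-sided with edgeR 4.0.16 (quasi-likelihood) in R 4.3.3, with Benjamini-Hochberg adjustment over all genes tested and a threshold of 0.05. The species were compared by an interaction term over genes matched by symbol. Levels are CPM on TMM-scaled library sizes. The test was run on simulated counts with known changes, drawn separately for each gene. These held no GC gradient, so they do not show how the test behaves with that of the mouse libraries. Replicate pairs differed by more than sampling noise in every group (chi-square per degree of freedom 1.54 to 25.5). The members and lists were chosen with earlier results of these data known. Named genes were all members, set myeloid regulators, up to 3 called genes per list with the smallest p, all tested neighbours within 100 kb, from which examples are given, and the 5 genes nearest to MPO. The GC offset (transcript GC from GENCODE M21), the pair of libraries left out together, the sort markers and the promoter motifs were chosen after seeing the data. The planned protein comparison was not run.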

Additional observations from a re-analysis of the deposited data

Results flagged for a closer look

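The effect of lowering DDX21 on MPO differed between the experiments by a test of the difference itself. The log2 fold change was -0.81 in mouse cKO cells and -2.36 in human shDDX21 cells, and the difference, mouse minus human, was 1.56 (adjusted p = 0.000331, edgeR's quasi-likelihood test). All 3 perturbed libraries lay below all 3 controls in both. Of the 10344 genes tested in both experiments, 56.3% differed at the same threshold. Species, cell source and the way DDX21 was lowered cannot be told apart.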

How the results depend on the processing

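When 1 library was left out, calls over all genes changed, and the number called of the 7 mouse genes ran from 3 to 7. It was 3 when at least a 2-fold change was also required. Other scalings, count filters, DESeq2 and the GC offset gave 6 or 7. In human the number was 4 in each alternative except the 2-fold requirement, which gave 1. Of the 4 members tested in both species, the number whose effect differed was 1 (against 56.3% of all 10344 genes compared), rising to 2 with total counts and running from 1 to 2 when a library was left out. No member changed direction except CST7, which stood at -0.095 without shNC library 1 and -0.062 without shDDX21 library 2, within a range of -0.095 to 0.17 when 1 library was left out. Of genes that were not called, Spi1 stood at -0.11 without WT library 3 and -0.099 without cKO library 1, within a range of -0.11 to 0.20. Cebpa stood at 0.010 with upper-quartile factors, 0.050 with total counts, 0.025 without WT library 2, 0.017 without cKO library 1, 0.0054 without cKO library 2, within a range of -0.047 to 0.025 when 1 library was left out, and 0.35 with the GC offset. The causes were not tested. A replicate block changed no member call, leaving 7 in mouse, 4 in human and 1 for the difference. Samples with the same number did not deviate together in every pair (correlations of 0.534, -0.33 and 0.0566 in mouse and -0.021, -0.00102 and 0.00224 in human). With 3 libraries in each group and, in mouse, the GC gradient, these values cannot decide whether the numbers pair the samples. Depth limits Elane in cKO (37 to 102 counts) and CST7 (19 to 25 counts).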

Other observations

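Serglycin and cystatin F are also made by cytotoxic lymphocytes, so the markers of those cells are given beside Srgn and Cst7. In mouse, 3 of 3 tested NK and T cell cytotoxic markers rose, and the level summed over all 11 listed genes with a symbol, tested or not, lay between 7.50 and 9.33 CPM in WT and between 31.4 and 33.1 CPM in cKO. Gzmb, which encodes granzyme B, rose from 0.999 ± 0.233 to 6.82 ± 0.594 CPM, Prf1, which encodes perforin, by 2.25 and Nkg7 by 1.93 on the log2 scale. The other 8 were too low to test. Among them Klrd1, an NK cell receptor, was at 16, 8 and 12 counts in WT and 3, 7 and 6 counts in cKO, Gzma was at 1 to 3 counts in WT and 1 count in each cKO library, and Gzmk and Ncr1 were at 0 in all mouse libraries. In human, 1 of 5 was higher (KLRD1) and 1 lower (NKG7), and KLRD1 lost its call without shNC library 2 or 3 or shDDX21 library 1 or 2 (largest adjusted p = 0.183) and in DESeq2 (0.106). Their part in the rise of Srgn and Cst7 was not tested.

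Erythroid markers were 3 higher and 6 lower of 11 in mouse, and 5 higher and 3 lower of 10 in human. Megakaryocyte markers were 4 higher and 0 lower of 9 in mouse, with sums of 121 to 139 CPM in WT and 198.9 to 271 CPM in cKO, and 4 higher and 2 lower of 8 in human. Hepatocyte markers were higher for 6 of 6 tested in mouse, with sums over all 9 listed genes with a symbol of 14.7 to 16.3 CPM in WT and 48.9 to 53.0 CPM in cKO. In human, 2 of 2 tested were lower, with sums of 8.49 to 10.5 CPM in shNC and 5.39 to 5.64 CPM in shDDX21. The mouse cells were sorted for Kit and for lack of lineage markers, and the source of these transcripts was not tested.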
